A study of Mus musculus with 9 samples.

Results

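Cytosolic sulfotransferases were followed in mouse liver across an alcohol diet and an added treatment. The members were the 8 genes Sult1a1, Sult1b1, Sult1c2, Sult1d1, Sult1e1, Sult2a8, Sult3a1 and Sult5a1, taken by gene name from a table of 52151 gene entries. Of the 8 genes, 7 had an entry of their own name that holds a known transcript. Sult1a1 had none, because its transcripts lie in an entry that bears the name of another gene, Slx1b. The names Sult1d1 and Sult2a8 each appear on 1 more entry that holds only a transcript assembled from these libraries.

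The study fed mice for 5 weeks and sequenced total liver RNA, with 3 libraries in each of 3 groups. Pair-fed mice (PF) received an isocaloric control liquid diet, alcohol-fed mice (AF) received the Lieber-DeCarli diet, and the last group (AF with MNA) received the Lieber-DeCarli diet with MNA injected into the abdominal cavity each day at 50 mg/kg. The labels give an age of 8 weeks for all samples, and the methods describe male C57BL/6J mice for PF and AF. The strain label reads C57BL/6 in PF and AF but C57BL/7, C57BL/8 and C57BL/9 in the 3 AF with MNA samples, and the labels do not spell out MNA. No group received MNA without alcohol, so an effect of MNA apart from the alcohol diet was not measured. The labels do not say that each library came from a separate animal, and the p-values then measure the spread between these libraries.

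Sulfotransferases of the cytosol move a sulfate group from the donor PAPS onto small molecules, which makes most of them more soluble in water and easier to excrete. In the liver they act on drugs and other phenols, steroids, thyroid hormones, catecholamines and bile acids, beside the cytochrome P450 enzymes and the glucuronosyltransferases. The family 1 enzymes mostly take phenols and estrogens, and the family 2 enzymes take the hydroxyl groups of steroids and bile acids. Several members are known to be expressed at different levels in male and female mouse liver.

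The 3 members with the clearest differences between AF and PF were Sult2a8, Sult1d1 and Sult1b1, and the RefSeq sequence around their upstream-most gene starts is shown for orientation. Each sequence runs from 250 bases before to 50 bases after the gene start on the minus strand of build GRCm38.p6, at chr7:14446538-14446837 for Sult2a8, chr5:87568957-87569256 for Sult1d1 and chr5:87538146-87538445 for Sult1b1. RefSeq gave 10 such windows for the 8 members. Capitals mark matches on either strand to TATAAA (the TATA box), AGGTCA and AGTTCA (half-sites of nuclear receptors), TTCNNNGAA (the STAT5 site), TTGCNNAA (the C/EBP site) or GTTAAT (a half-site of HNF1).
Sult2a8: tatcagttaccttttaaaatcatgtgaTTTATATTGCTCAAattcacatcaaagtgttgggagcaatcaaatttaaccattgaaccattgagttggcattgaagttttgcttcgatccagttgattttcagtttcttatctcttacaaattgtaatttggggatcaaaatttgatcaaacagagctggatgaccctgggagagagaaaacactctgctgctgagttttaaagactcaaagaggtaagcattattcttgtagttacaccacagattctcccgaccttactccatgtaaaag
Sult1d1: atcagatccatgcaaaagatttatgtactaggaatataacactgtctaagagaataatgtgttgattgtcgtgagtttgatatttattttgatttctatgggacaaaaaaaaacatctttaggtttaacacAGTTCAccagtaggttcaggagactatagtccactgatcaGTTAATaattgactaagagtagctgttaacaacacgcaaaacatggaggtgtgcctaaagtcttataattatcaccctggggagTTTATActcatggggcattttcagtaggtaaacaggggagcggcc
Sult1b1: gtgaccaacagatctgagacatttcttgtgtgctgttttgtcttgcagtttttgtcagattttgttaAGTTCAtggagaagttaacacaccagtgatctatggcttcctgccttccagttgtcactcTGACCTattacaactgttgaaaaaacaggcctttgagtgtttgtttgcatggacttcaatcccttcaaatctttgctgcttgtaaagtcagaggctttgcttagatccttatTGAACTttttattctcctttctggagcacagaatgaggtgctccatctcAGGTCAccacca
The Sult2a8 window held TATAAA on the opposite strand at -223 and TTGCNNAA beginning at -217, directly after it, counted from the gene start. Sult2a8 has a downstream start as well, at chr7:14438502-14438801, whose window, not printed, held TATAAA at -29, AGGTCA at -164 and -90 and AGTTCA at 7 and 13. The Sult1d1 window held AGTTCA at -119, GTTAAT at -79 and TATAAA on the opposite strand at 5. The Sult1b1 window held AGTTCA at -183 and, on the opposite strand, at -11, and it held AGGTCA at 38 and, on the opposite strand, at -123. Such matches are common, since TATAAA was present in 13.6%, AGGTCA in 16.3%, AGTTCA in 14.0%, TTCNNNGAA in 8.3%, TTGCNNAA in 10.8% and GTTAAT in 7.1% of all 32851 RefSeq windows of this length. They describe letters in these windows and were not tested as binding sites.

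Sult1b1, Sult1d1 and Sult1e1 lie side by side on chromosome 5 of GRCm38 in the GENCODE M21 annotation, all on the minus strand. Sult1b1 spans 87513339 to 87538195, Sult1d1 spans 87554645 to 87569027 and Sult1e1 spans 87575969 to 87591594. The gaps between them are 16449 and 6941 bases and hold no other annotated gene. Sult2a8 lies on chromosome 7 from 14410686 to 14446769 on the minus strand, 18281 bases from its relative Sult2a7. All 8 members are annotated as protein-coding genes. The coding sequences of Sult1b1 and Sult1d1 were 65.2% identical and those of Sult2a8 and Sult2a7 64.0% identical, and no 50-base stretch of the Sult1b1, Sult1d1, Sult1e1 or Sult2a8 transcript was shared with another gene (0%). In Sult3a1, 6.15% of such stretches were shared with Sult3a2, so its low values are uncertain. None of the 26083 lncRNA transcripts and none of the 4486 circRNAs in the deposited tables overlapped a member gene (0 of each).

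Levels are in FPKM, fragments scaled to the length of the transcript and the size of the library, and can be set side by side between genes. The libraries held between 57800660 and 82179248 reads. Of the 9 libraries, AF replicate 3 and AF with MNA replicate 1 stood apart in the summed FPKM of 13645 assembled transcripts inside introns, at 9433 and 8934 against 2477 to 4937 in the others. Albumin was at 10882 to 17386 FPKM in all 9 libraries. A lower level in whole tissue can come from fewer cells of a type or from less RNA per cell, and the data cannot tell them apart.

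Among the 7 members with an entry of their own name, the order of which leaves out Sult1a1, the leading one in PF liver was Sult2a8, a bile acid sulfotransferase, at 123 ± 11 FPKM (SD, n = 3). It was followed by Sult1d1, which sulfates catecholamines and other phenols and has no working counterpart in humans, at 31.6 ± 10.5 FPKM. Sult5a1, an enzyme with no well-known substrate, was at 5.74 ± 2.45 FPKM, and Sult1b1, which acts on thyroid hormone and small phenols, was at 5.16 ± 1.42 FPKM. The ranges of Sult5a1 and Sult1b1 overlapped, so their order was within the spread between libraries. Sult1c2 was lower, at 1.23 ± 0.277 FPKM. The estrogen sulfotransferase Sult1e1 was at 0.177 ± 0.0808 FPKM, and Sult3a1, which sulfates amines and is known for its female bias in mouse liver, was at 0.0333 ± 0.0577 FPKM.

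**Figure D1:**
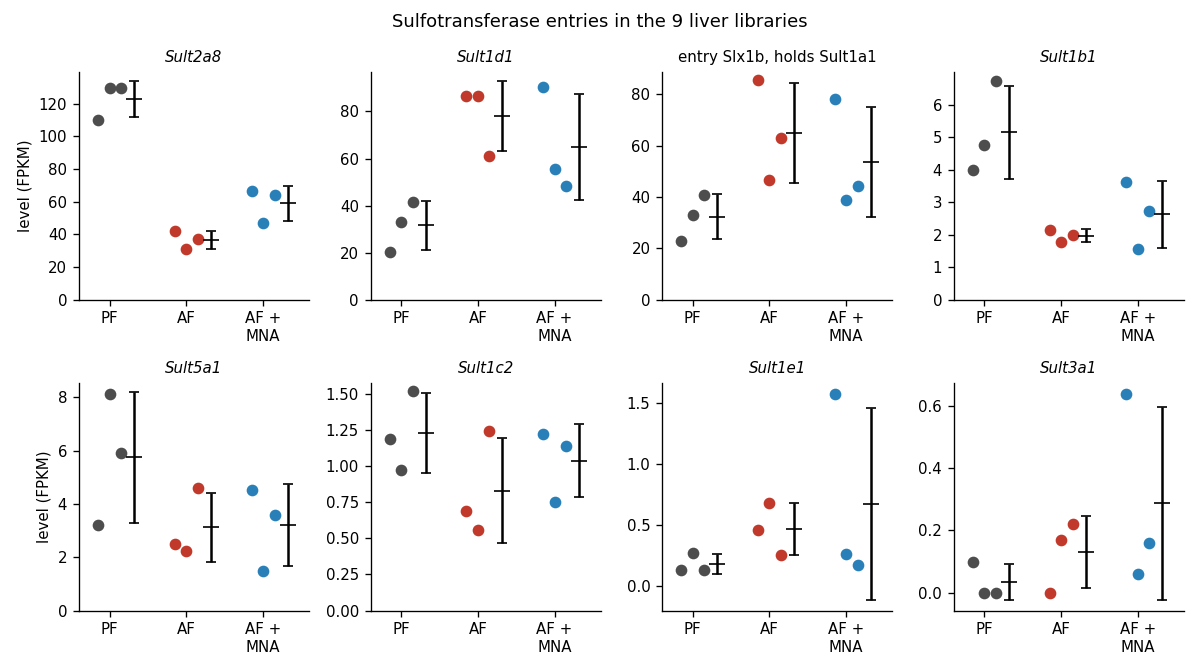
Level in FPKM of 7 sulfotransferase genes and of the Slx1b entry that holds Sult1a1, by group, with 1 point per library (replicates 1 to 3 from left to right) and a bar for the mean and SD beside them; each panel has its own scale. The 3 groups are fully apart for Sult2a8, and the AF points of Sult1d1 lie above and those of Sult1b1 below the PF points.

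The comparison of AF with PF asks how the alcohol diet moved these genes. Sult2a8 fell, Sult1b1 fell and Sult1d1 rose past the threshold of the study's methods, set at an unadjusted p under 0.05 together with a log2 ratio between mean levels of more than 1 either way. The paper states this threshold for lncRNAs tested with Ballgown, whereas here the p came from limma on gene entries. Of the 8 members, 5 reached the minimum mean of 0.5 FPKM in the 6 libraries and were tested, and 3 of these passed, against 4.3% of all 12268 genes tested. By direction, 1 member rose against 1.95% of all genes and 2 fell against 2.35%. With Benjamini-Hochberg adjustment over all genes tested, the limma fit kept 1 member under 0.05, Sult2a8, against 0.326% of all genes, and 3 members were under 0.05 without adjustment, against 11.7%. The median log2 ratio of the 5 members was -0.88 and that of all genes was -0.03.

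Sult2a8 was at 110, 129 and 129 FPKM in PF replicates 1 to 3 and at 41.9, 31.1 and 37.2 FPKM in AF. Every AF library lay far below every PF library. The log2 ratio was -1.74, and limma gave a coefficient of -1.72 ± 0.16 (SE) on the log2(FPKM + 1) scale with an adjusted p of 0.0134. The additional assembled entry under the name Sult2a8 was at 2.38, 4.61 and 3.2 FPKM in PF and at 0.23, 0.74 and 2.47 FPKM in AF, a small amount beside the main entry. Leaving out AF replicate 3, the library with more intron signal, gave a log2 ratio of -1.75 with an adjusted limma p of 0.0577, and without PF replicate 2 or 3 the adjusted limma p was 0.0662 or 0.0685.

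Sult1d1 was at 20.5, 33.0 and 41.4 FPKM in PF and at 86.7, 86.7 and 60.9 FPKM in AF. The groups did not overlap, as was so in the same direction for 8.18% of all genes tested. The log2 ratio was 1.3, with a limma coefficient of 1.31 ± 0.28 (SE), an unadjusted p of 0.00285 and an adjusted p of 0.157. The additional assembled entry named Sult1d1 was above 0 in 1 library of each group, at 1.18 FPKM in PF, 1.84 in AF and 0.86 in AF with MNA.

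Sult1b1, the neighbour of Sult1d1 on chromosome 5, moved the opposite way. It was at 3.98, 4.75 and 6.74 FPKM in PF and at 2.16, 1.77 and 1.99 FPKM in AF, without overlap, as was so in that direction for 10.1% of all genes tested. The log2 ratio was -1.39, and limma gave a coefficient of -1.03 ± 0.18 (SE) with an unadjusted p of 0.00103 and an adjusted p of 0.11. Sult1e1, on the other side of Sult1d1, was at 0.13, 0.27 and 0.13 FPKM in PF and at 0.46, 0.68 and 0.25 FPKM in AF, below the minimum for the test. The PF and AF values of Sult1e1 overlapped, and all were under 1 FPKM.

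The remaining members did not pass the threshold. Sult5a1 was at 3.22, 8.11 and 5.9 FPKM in PF and at 2.51, 2.24 and 4.61 FPKM in AF, and the groups overlapped through PF replicate 1 and AF replicate 3. Its log2 ratio was -0.88 with an adjusted limma p of 0.489, and it passed the threshold without AF replicate 3 (-1.27) or without PF replicate 1 (-1.17). Sult1c2 was at 1.19, 0.97 and 1.52 FPKM in PF and at 0.69, 0.56 and 1.24 FPKM in AF, a log2 ratio of -0.56 with an adjusted limma p of 0.583. The 95% confidence interval of the Sult1c2 coefficient ran from -0.72 to 0.13, which includes both a fall and no difference. The log2 ratio of Sult1c2 was -0.97 without AF replicate 3 (unadjusted limma p of 0.0289) and -0.35 without AF replicate 2. Sult3a1 was listed at 0 in 2 of 3 PF libraries and 1 of 3 AF libraries and did not exceed 0.22 FPKM in these groups.

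Sult1a1, the main sulfotransferase of simple phenols, could not be read on its own. Its 3 annotated transcripts share a merged entry of 10 transcripts named Slx1b with 4 transcripts of Slx1b, a subunit of a DNA structure nuclease, 1 of the pseudogene Gm6939 and 2 that are not in GENCODE M21. In Sult1a1 itself, 8.23% of 50-base stretches were shared with Gm6939. The merged entry, whose range overlapped that of Sult1d1 in each group, was at 23.1, 33.2 and 40.6 FPKM in PF, at 85.4, 46.6 and 63.1 FPKM in AF and at 78.0, 38.75 and 44.2 FPKM in AF with MNA. AF lay above PF without overlap, with a log2 ratio of 1.01, an unadjusted limma p of 0.0125 and an adjusted p of 0.294. That call was lost without AF replicate 1 (0.76) or without PF replicate 1 (0.82), and also with the limma coefficient of 0.98 as the fold change, and how much of the entry is Sult1a1 cannot be told apart. The merged entry passed in neither comparison of AF with MNA, with log2 ratios of -0.28 against AF (adjusted limma p of 0.98) and 0.73 against PF (adjusted p of 0.406).

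The comparison of AF with MNA against AF asks whether MNA moved the genes on the alcohol diet. It uses the same AF libraries as the comparison above. Of the 8 members, 6 were tested, Sult1e1 through its level in AF with MNA alone, and none passed the threshold (0 of 6 by limma), against 1.98% of all 12214 genes tested. At an unadjusted limma p under 0.05 without the fold limit, 1 member was counted, Sult2a8, against 5.22% of all genes, and no member passed with adjustment, against 0.0491% of all genes. The median log2 ratio of the 6 members was 0.37 and that of all genes was 0.01. The count of members also stayed at 0 without AF replicate 3 and AF with MNA replicate 1, the libraries with more intron signal.

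Sult2a8 was at 66.4, 46.7 and 64.2 FPKM in AF with MNA, above all 3 AF libraries and below all 3 PF libraries. Groups lay apart in the upward direction for 5.53% of all genes in this comparison. The log2 ratio to AF was 0.69, and the limma coefficient of 0.67 had a 95% confidence interval from 0.21 to 1.12, with an unadjusted p of 0.0116 and an adjusted p of 0.94. Sult1d1 was at 90.6, 55.6 and 48.5 FPKM in AF with MNA, a range that covers that of AF. Its log2 ratio to AF was -0.27, and the interval of its limma coefficient ran from -0.95 to 0.36. Without AF replicate 3 and AF with MNA replicate 1 the log2 ratio of Sult1d1 was -0.74, with an unadjusted limma p of 0.0102 and an adjusted p of 0.491. That exclusion was chosen after seeing the data and left fewer libraries in each group. It removed the lowest AF value and the highest AF with MNA value of Sult1d1.

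Sult1b1 was at 3.61, 1.56 and 2.74 FPKM in AF with MNA, on both sides of the AF values, with a log2 ratio of 0.42. Sult5a1 was at 4.53, 1.5 and 3.59 FPKM with a log2 ratio of 0.04, and Sult1c2 was at 1.22, 0.75 and 1.14 FPKM with a log2 ratio of 0.32. In all 3 of these genes, AF with MNA replicate 2 was the lowest library of its group and replicate 1 the highest. Sult1e1 was at 1.58, 0.26 and 0.17 FPKM and Sult3a1 at 0.64, 0.06 and 0.16 FPKM in AF with MNA. In both, replicate 1, a library with more intron signal, was the highest of all 9 libraries, and the part of that signal in their level was not tested.

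**Figure D2:**
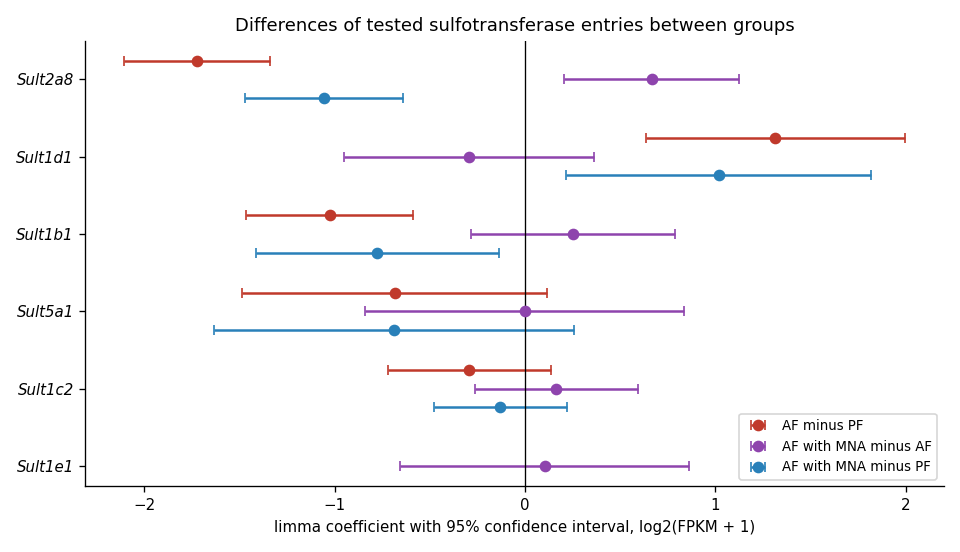
Limma coefficient on the log2(FPKM + 1) scale with its 95% confidence interval for each tested member in the 3 comparisons, which share groups; the vertical line marks no difference. The interval of Sult2a8 lies left of 0 in both comparisons with PF and right of 0 in AF with MNA against AF, while those of Sult5a1 and Sult1c2 cross 0 throughout.

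AF with MNA against PF shares its libraries with both comparisons above. Of the 8 members, 5 were tested and 2 passed the threshold, against 3.89% of all 12276 genes tested. Sult2a8 fell with a log2 ratio of -1.06, an unadjusted limma p of 0.000724 and an adjusted p of 0.0907, and Sult1d1 rose with a log2 ratio of 1.04, an unadjusted p of 0.0208 and an adjusted p of 0.274. By direction, the shares of all genes were 1.94% higher and 1.95% lower, and no member passed with adjustment (0 of 5 by limma), against 0.432% of all genes. Without adjustment 3 members had a p under 0.05, against 14.5%. Sult1d1 lay above PF in every library of AF with MNA, as did 9.54% of all genes. Sult1b1 lay below PF in every library of AF with MNA, as did 11.9% of all genes, but its log2 ratio of -0.97 missed the fold limit (unadjusted limma p of 0.0245, adjusted p of 0.283). Sult5a1 had a log2 ratio of -0.84 and Sult1c2 one of -0.24.

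Several of these calls changed when 1 library was left out. Sult1d1 no longer passed without AF with MNA replicate 1 (0.72) or PF replicate 1 (0.80), and Sult2a8 no longer passed without AF with MNA replicate 2 (-0.91). Sult1b1 passed without AF with MNA replicate 1 (-1.26) or PF replicate 1 (-1.12), and Sult5a1 passed without PF replicate 1 (-1.13). Sult2a8 lay below PF in all of these settings.

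The make-up of the summed level of the 7 named member entries was read within each library. Sult2a8 and Sult1d1 together made up 92.0 to 96.1% of the sum in each library. Sult2a8 took 79.1, 73.3 and 69.9% of the sum in PF. Its share was 31.2, 25.2 and 35.0% on the alcohol diet and 39.4, 43.9 and 53.3% with MNA added. Sult1d1 took 14.7, 18.7 and 22.4% in PF, 64.5, 70.4 and 57.2% on the alcohol diet and 53.7, 52.2 and 40.2% with MNA added. Among these 7 entries, which leave out Sult1a1, the highest was thus Sult2a8 in all PF libraries and in replicate 3 of AF with MNA, and Sult1d1 in the other libraries.

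The ratio of the Sult2a8 level to the Sult1d1 level is taken within a library and does not depend on how libraries are scaled to each other. It was 5.39, 3.92 and 3.13 in PF, against 0.483, 0.359 and 0.611 in AF. With MNA it was 0.733, 0.84 and 1.33. The 3 groups did not overlap, and AF with MNA lay between the others. The genes of the ratio were chosen with their opposite differences between AF and PF known, so this is a description with no test. The sum itself was 167 ± 24.3 FPKM in PF, 121 ± 14.1 in AF and 132 ± 32.6 in AF with MNA (SD, n = 3), and the exact two-sided permutation p was 0.1 for AF against PF, 0.2 for AF with MNA against PF and 0.8 for AF with MNA against AF. A p of 0.1 is the smallest that 3 against 3 libraries allow, so no test of the sum could pass 0.05.

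**Figure D3:**
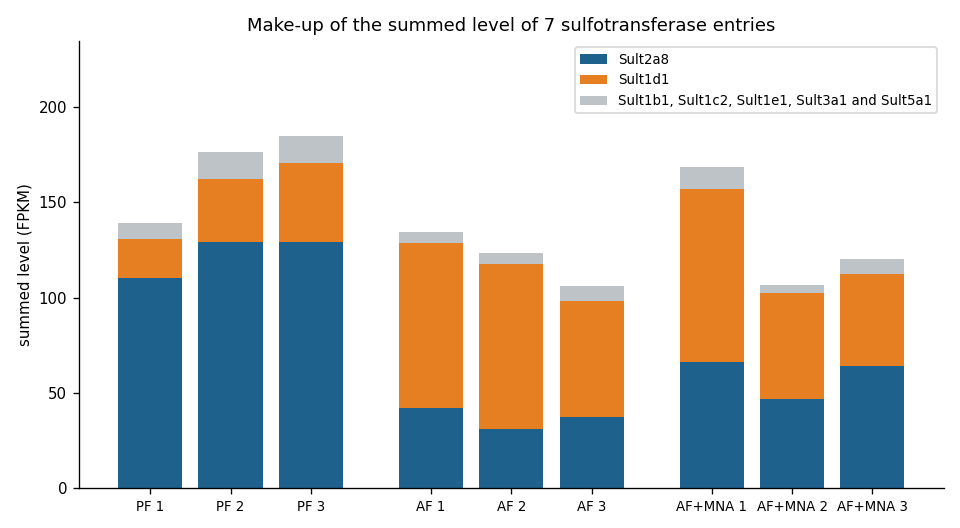
Summed level in FPKM of 7 sulfotransferase entries in each of the 9 libraries, divided into Sult2a8, Sult1d1 and the other 5 genes. Sult2a8 fills 69.9 to 79.1% of the PF bars and 25.2 to 35.0% of the AF bars, with AF with MNA at 39.4 to 53.3%.

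Among the other cytosolic Sult genes, 8 had an entry, and these added at most 2.87 FPKM to any library. Sult2a7, the neighbour of Sult2a8, was the only one that reached 0.5 FPKM on average and was tested. It was at 0.94, 0.29 and 0.84 FPKM in PF, against 0.94, 1 and 1.16 FPKM in AF. With MNA it was at 2.49, 1.17 and 0.93 FPKM, where replicate 1 was the highest of all libraries. Its log2 ratio of AF to PF was 0.58 with an adjusted limma p of 0.588, and it was 0.22 without PF replicate 2 and 0.87 without PF replicate 1. The 7 others were each at or under 0.27 FPKM in every library: Sult2a2, Sult2a5, Sult2a6, Sult2b1, Sult3a2, Sult4a1 and Sult6b1.

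Sulfotransferases need the donor PAPS, which Papss1 and Papss2 make from sulfate and ATP. None of the 8 tested genes of PAPS supply (the synthases, sulfate and PAPS carriers, and the phosphatases that clear the product) passed the threshold in AF against PF (0 of 8 by limma, and 1 of 8 at an unadjusted p under 0.05, Papss1). Over all genes, 4.3% passed and 11.7% had such a p. Papss2, the main synthase of liver, was at 44.8 ± 12.1 FPKM in PF, 50.5 ± 15.3 in AF and 58.8 ± 13.1 in AF with MNA. Papss1 was far lower, at 2.79 ± 0.525 FPKM in PF and 1.70 ± 0.629 in AF, with a log2 ratio of -0.72 and an adjusted limma p of 0.404. The list had a median log2 ratio of -0.14. None passed in either comparison of AF with MNA, where limma gave an unadjusted p under 0.05 for 0 of 8 genes against AF and 1 of 8 against PF. The shares of all genes were 5.22% and 14.5%.

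Of 11 tested genes that turn cysteine into sulfate or related products, 1 rose and 1 fell in AF against PF. Over all genes in that comparison, 1.95% rose, 2.35% fell and 11.7% had an unadjusted limma p under 0.05. Ethe1, a dioxygenase of sulfide breakdown, was at 16.9 ± 4.16 FPKM in PF and 39.7 ± 8.45 FPKM in AF, a log2 ratio of 1.23 with an adjusted limma p of 0.127. Csad, which leads cysteine sulfinate toward taurine and so away from sulfate, was at 12.1 ± 4.82 FPKM in PF and 4.35 ± 1.51 FPKM in AF, a log2 ratio of -1.48 with an adjusted limma p of 0.27. Sulfite oxidase (Suox), which makes sulfate in the last step, varied too widely to rank, from 4.36 and 7.6 FPKM in AF with MNA replicates 1 and 2 to 58.1 FPKM in replicate 3. None of 10 tested sulfatases, which remove sulfate again, passed (0 of 10 by limma, and 2 of 10 at an unadjusted p under 0.05). Of 9 tested sulfotransferases of the Golgi, 1 fell, the heparan sulfate enzyme Hs6st1 with a log2 ratio of -1.18 and an adjusted limma p of 0.411, and leaving out either AF replicate 1, 2 or 3 or PF replicate 1 or 3 removed that call.

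None of 12 tested nuclear receptors and other regulators known to act on genes of drug metabolism passed in AF against PF (0 of 12 by limma, and 1 of 12 at an unadjusted p under 0.05, Esr1 at a log2 ratio of 0.93). Over all genes, 11.7% had such a p. In AF with MNA against PF, 1 of 12 rose, against 1.94% of all genes. It was the receptor CAR (Nr1i3), at 11.3, 16.0 and 12.1 FPKM in PF against 25.8, 47.2 and 18.3 FPKM with MNA. Its log2 ratio was 1.21 with an adjusted limma p of 0.273, and it no longer passed without AF with MNA replicate 2 (0.75), PF replicate 1 (1.11) or PF replicate 3 (1.16). Nr1i3 was at 14.2, 12.7 and 54.1 FPKM in AF, where replicate 3 alone was high. At an unadjusted limma p under 0.05, 4 of 12 were counted in AF with MNA against PF, against 14.5% of all genes. In AF with MNA against AF, where none passed the threshold, 2 of 12 were counted, against 5.22% of all genes. The receptor of aromatic compounds, Ahr, was counted in both, at 5.96, 6.68 and 6.48 FPKM in PF, 5.29, 5.35 and 6.31 FPKM in AF and 4.21, 3.84 and 3.73 FPKM with MNA. Its libraries with MNA lay below all others, with log2 ratios of -0.70 to PF and -0.52 to AF and adjusted limma p-values of 0.0907 and 0.94, short of the fold limit. Of all genes, 11.9% lay below PF in every library with MNA.

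Since several Sult genes differ between the sexes, lists of genes with a known sex bias in mouse liver were read beside them, chosen with earlier results of these data in view. The paper already lists transcripts of the male-biased genes Cyp2u1, Cyp4a12a, Cyp4a12b, Elovl3, Mup1, Mup3 and Slco1a1 as lower in its alcohol model. A count of falls in that list is therefore no independent result. Of 10 tested female-biased genes, 7 rose and 0 fell in AF against PF, and of 14 tested male-biased genes, 0 rose and 10 fell. Over all genes, 1.95% were called higher and 2.35% lower. Several of these genes entered the test through 1 group alone, which favours a call, and of those that averaged 0.5 FPKM or more in both groups, 3 of 6 female-biased genes rose and 9 of 13 male-biased genes fell. With limma's adjustment, 2 of the 7 and 5 of the 10 were under 0.05, against 0.326% of all genes in both directions. Among these, Cyp2b13 averaged 0.0033 FPKM in PF and Hsd3b5 0.12 FPKM in AF, so each was tested through its other group alone. The steroid hydroxylase Cyp2a4 was at 1.41 ± 0.227 FPKM in PF and 27.7 ± 12.3 FPKM in AF, with an adjusted limma p of 0.00817. The steroid dehydrogenase Hsd3b5, tested through its PF level alone, was at 17.3 ± 9.0 FPKM in PF and 0.12 ± 0.0557 FPKM in AF. The count of female-biased genes was 4 without AF replicate 1 or without PF replicate 1. Sult3a1, a member with a known female bias, was at most at 0.22 FPKM in PF and AF. In AF with MNA against PF, 4 of 10 female-biased genes rose, against 1.94% of all genes, and 8 of 14 male-biased genes fell, against 1.95%. Of the genes that reached 0.5 FPKM in both groups, 2 of 6 rose and 8 of 14 fell. The count of male-biased genes was 5 without PF replicate 1 or 2. With limma's adjustment, 3 of the 4 female-biased and 1 of the 8 male-biased genes were under 0.05, against 0.432% of all genes in both directions. Of the 3, Cyp2b13 and Cyp2b9 averaged 0.0033 and 0.06 FPKM in PF and were tested through AF with MNA alone. In AF with MNA against AF, 1 gene of each list rose, Acot3 and Elovl3, and 6 male-biased genes passed without AF with MNA replicate 1. The call of Acot3 was lost without AF replicate 1 or 2, and that of Elovl3 without any library of the pair of groups except AF with MNA replicate 1.

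**Figure D4:**
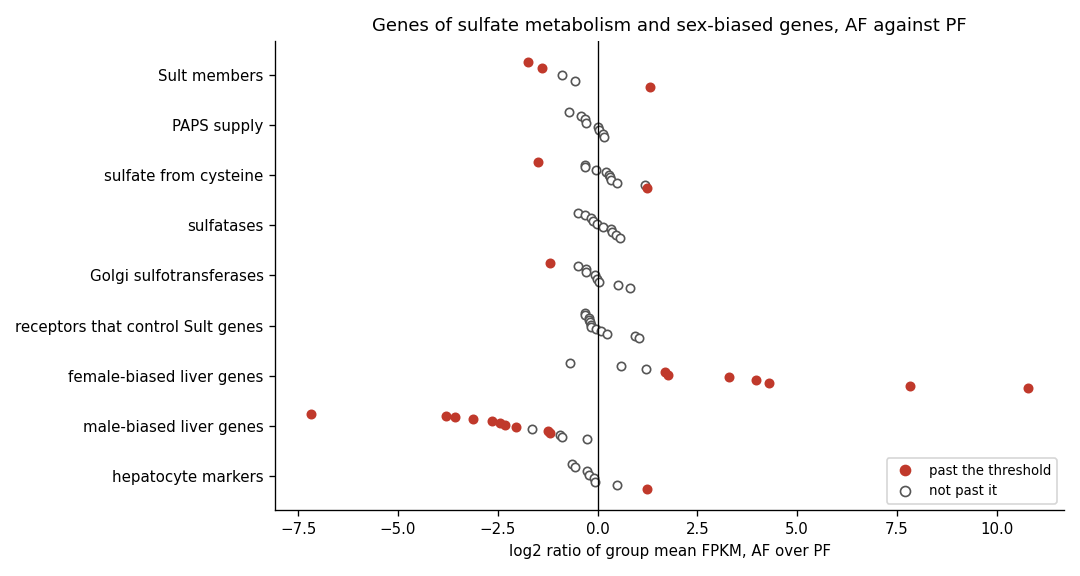
Log2 ratio of group mean FPKM, AF over PF, of each tested gene (1 circle a gene) in the members and 8 gene lists; filled circles are past the threshold. The female-biased genes reach far to the right and the male-biased genes to the left, while the genes of PAPS supply and the sulfatases stay between -1 and 1; the furthest right points rest on PF levels near 0.

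Markers of cell types were read in the same libraries, and their part in the member results was not tested. Over all genes in AF against PF, 4.3% passed the threshold and 11.7% had an unadjusted limma p under 0.05. The 8 hepatocyte markers summed to 18488 to 23490 FPKM in PF, 16643 to 23753 in AF and 21417 to 23751 in AF with MNA, and 1 of 8 passed in AF against PF, Tat, with a log2 ratio of 1.24. The median of the list was -0.15, with Ttr at -0.64 and Apoa1 at -0.56, and Serpina1a at -0.26 and Trf at -0.22 lay below PF in every AF library, as did 10.1% of all genes. Cps1 at 0.48 lay above PF in every AF library. The 6 endothelial markers summed to 21.9 to 28.7 FPKM in PF, 28.6 to 41.0 in AF and 35.1 to 41.3 in AF with MNA, and none passed in AF against PF (0 of 6 by limma, and 1 of 6 at an unadjusted p under 0.05), with log2 ratios above 0 in all 6 and a median of 0.41. In AF with MNA against PF, where Sult1d1 was past the threshold, none of the 6 passed either, but the median log2 ratio was 0.61, and Clec4g, Kdr, Oit3 and Pecam1 lay above PF in every library with an unadjusted limma p under 0.05 (4 of 6). Of all genes in that comparison, 9.54% lay above PF in that way and 14.5% had an unadjusted p under 0.05 in either direction. The Kupffer and immune markers summed to 57.3 to 70.1 FPKM in PF and 45.6 to 83.3 in AF, and the 6 tested had a median log2 ratio of -0.14. Marco passed among them, at 1.25 (adjusted limma p of 0.365), while Clec4f at -0.64, Vsig4 at -0.52 and Adgre1 at -0.23 lay the other way without passing. The 4 red cell markers summed to 332 to 450 FPKM in PF and 293 to 650 in AF, with a median log2 ratio of 0.29. Alas2 passed at -1.86 (adjusted limma p of 0.108), while the globins Hba-a2, Hbb-bs and Hbb-bt were at 0.20, 0.43 and 0.38 without passing. None of 6 stellate cell markers and none of 2 tested cholangiocyte markers passed (0 of each by limma, with 3 of 6 and 1 of 2 at an unadjusted p under 0.05). Des at 0.93 and Col1a1 at 0.87 among the stellate markers, and Spp1 at 0.94 and Sox9 at 0.54, both tested cholangiocyte markers, lay above PF in every AF library, as did 8.18% of all genes. Reln at -0.56, the stellate marker that makes up the 3, and Pdgfrb at -0.11 had lower means in AF. The median log2 ratios were 0.15 for the stellate and 0.74 for the cholangiocyte markers. The calls of Tat and Marco were each lost without 4 of the 6 libraries in turn.

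Across the 9 libraries, the genes whose log2(FPKM + 1) followed each member most closely were picked from 9975 genes by Pearson's r, as a description. For Sult2a8 they were E030024N20Rik (0.97), the esterase gene Aadac (0.97) and 2310039H08Rik (0.97). Aadac was at 247, 246 and 258 FPKM in PF, against 160, 131 and 151 in AF and 170, 180 and 182 with MNA added. Its groups lay in the order PF, AF with MNA, AF, which its choice by correlation with Sult2a8 favours. For Sult1d1 they were the Golgi glycoprotein gene Glg1 (0.99), the chemokine gene Ccl9 (0.99) and Stab1 (0.96), a scavenger receptor of liver endothelium. Ccl9 was at 4.56, 9.36 and 9.23 FPKM in PF, against 24.8, 23.6 and 16.5 in AF and 22.1, 15.2 and 12.2 with MNA added, and both it and Sult1d1 were lowest in PF replicate 1. For Sult1b1 they were Mkln1 (0.95), Gnpda1 (0.93) and Eogt (0.92), for Sult1c2 Ldlrad3 (0.96), Gpam (0.95) and Iqcc (0.95), and for Sult5a1 Cyb561d2 (0.96), Zbtb43 (0.95) and Mief1 (0.94). The points share the group differences and the libraries, and the values say nothing of shared control.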

How the data were processed

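Liver RNA of 9 samples was measured in ribosomal RNA-depleted, strand-specific paired-end libraries. The submitters' processing notes name cutadapt 1.9, FastQC, HISAT2, StringTie 1.3.4, edgeR and TopHat; the genome build is not given in the sources used here, and the starts and ends of 7708 of 7879 known lncRNAs matched GENCODE M21 on GRCm38. The authors deposited gene and lncRNA levels as FPKM from StringTie, with read coverage for lncRNAs, and circRNA junction counts with a normalized signal. The FPKM tables carry no gene counts. Total reads were recovered from the constant between circRNA counts and their signal, taking 150-base reads, and came out whole within 0.00001 in 9 of 9 libraries. The deposited lncRNA and circRNA tables served for overlap, read totals and intron signal only.

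Groups came from the sample labels. Of 26345 named entries with a known transcript, those averaging 0.5 FPKM or more in the 6 libraries compared were tested on log2(FPKM + 1) with limma 3.58.1 (lmFit, eBayes with intensity trend) in R 4.3.3, and p-values were adjusted by Benjamini-Hochberg over all genes tested. Fold changes are log2 ratios of group mean FPKM. The fit was tested on simulated data. Python 3.11.15, pandas 2.3.3, scipy 1.17.1, Biopython 1.88 and matplotlib 3.10.9 were used. The rule named all members, the other Sult genes, at most 4 genes past the threshold per list, and the 3 closest genes per member; list genes named without being past the threshold were chosen after their values were seen. The members and lists were chosen with earlier results of these data known.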

Additional observations from a re-analysis of the deposited data

How the results depend on the processing

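The 3 members past the threshold in AF against PF (Sult1b1, Sult1d1 and Sult2a8) were past it in every alternative run except the adjusted threshold, which left 1; no member passed in AF with MNA against AF in any alternative. Leaving out 1 library in turn gave 3 to 4, 0 and 1 to 3 members in AF against PF, AF with MNA against AF and AF with MNA against PF. In the last comparison the count of 2 became 1 with the replicate block and 0 with the adjusted threshold. Counts over all genes, in the same order, were 527, 242 and 477. They became 249, 99 and 229 with the limma coefficient as the fold change, 1183, 676 and 1105 with every gene above 0, 265, 81 and 228 at a minimum of 2 FPKM, 40, 6 and 53 with the adjusted threshold, and 859, 505 and 744 with assembled entries included, an alternative chosen after seeing the data. Leaving out 1 library gave 516 to 764, 211 to 367 and 467 to 545, and leaving out AF replicate 3 and AF with MNA replicate 1 together, also chosen after seeing the data, gave 470 in AF with MNA against AF, up from 242; AF replicate 3 alone gave 367. The log2 ratio of Sult5a1 in AF with MNA against AF, 0.04, turned to -0.0026 as a coefficient and ranged from -0.29 to 0.43 with 1 library left out (-0.29, -0.05, -0.10 and -0.15 where it turned). In AF against PF, scaling libraries to the same median changed no member call. Deviations of same-numbered libraries correlated between -0.08 and 0.06, and not every library correlated best with its own number. With 3 libraries a group, such values show no clear pairing by replicate number and cannot exclude one. The replicate block gave 562, 260 and 488 genes. With it the adjusted p of Sult2a8 in AF against PF was 0.111, and Sult1d1 in AF with MNA against PF had an unadjusted limma p of 0.0611. With every gene above 0 tested, Sult1e1 also passed in AF against PF, at levels under 1 FPKM. The causes were not tested. With 3 libraries a group and no gene counts, the spread between libraries sets the precision, and values under 1 FPKM are the least certain.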
